A study of Mus musculus with 6 samples.

Results

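The 10 genes described here encode cytokine receptor chains: *Il2ra*, *Il2rb*, *Il2rg*, *Il15ra*, *Il4ra*, *Il21r*, *Il6ra*, *Il6st*, *Il27ra* and *Il10ra*. They were chosen by name, as receptors of the gamma-chain and IL-6 families with the IL-10 receptor beside them; the rule uses no measured value, though it was written with earlier results of these data known. All 10 were found among the 47643 Ensembl identifiers of the count table, and all 10 were among the 11877 genes tested, which had at least 10 reads summed over the 6 samples. 0 of 10 differed between any pair of groups at an adjusted p under 0.05 (edgeR quasi-likelihood test, Benjamini-Hochberg adjustment over all genes tested). Over all genes tested 0.901% did so with anti-PD1 against isotype, 0.0421% with anti-Lag3 against isotype and 0.303% with anti-PD1 against anti-Lag3, so that a count of 0 among 10 genes is near the background. Some genes of a wider cytokine signalling list, among them *Il12rb2*, *Il23r*, *Il21*, *Jak2* and *Stat3*, were higher with anti-PD1 than with isotype. That list was drawn up with earlier results known and takes in IL-12 and IL-23 signalling genes. DESeq2 and limma-voom also called 0 of 10 in each comparison.

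CD4+ T cells were sorted from spleens of Tg4 Tiger *Nr4a3*-Tocky mice. These mice carry a transgenic T cell receptor for a peptide of myelin basic protein (MBP), a GFP reporter at *Il10*, and a Timer protein driven by *Nr4a3*, which fluoresces blue when new and red when mature. All mice of all 3 groups carried these alleles and received 80 μg of 4Y MBP peptide under the skin. 24 h later they received 800 μg of an isotype antibody pool, of anti-PD1 (clone 29F.1A12) or of anti-Lag3 (clone CB97W as labelled) into the peritoneum, and 30 min after that a second peptide dose of 8 μg. Spleens were taken 4 h after the second dose and cells positive for both the blue and the red form were sorted, a gate for cells that had recently signalled through the T cell receptor. Each group held 2 samples. The ages of these mice were not given in the sources used here, and a further replicate batch that the study excluded was not analysed. With a single T cell receptor specificity and no untreated or unstimulated group in this set, the values describe re-stimulated Tg4 T cells only.

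The receptors share chains. The common gamma chain, encoded by *Il2rg*, pairs with *Il2rb* in the IL-2 and IL-15 receptors, with *Il4ra* in an IL-4 receptor and with *Il21r* in the IL-21 receptor, and *Il2ra* (CD25) and *Il15ra* add high affinity for IL-2 and IL-15. The signalling chain of the IL-6 family, gp130, is encoded by *Il6st* and joins the ligand-binding chain of *Il6ra* or, for IL-27, the chain of *Il27ra*, whereas *Il10ra* encodes the ligand-binding chain of the IL-10 receptor, a separate structural class that works with *Il10rb*. Engaged receptors activate Janus kinases (JAK) and STAT transcription factors. In T cells IL-2 with *Il2ra* is known for supporting proliferation and regulatory T cells, and IL-6 and IL-21 for acting largely through STAT3.

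Total counts ran from 2107715 to 2648920 per sample, and 12810 to 13127 genes had at least 1 read. A single gene, *Gm42418*, took 17.4 to 21.0% of the counts and mitochondrial genes took 8.54 to 9.23%. CD4 T cell markers summed to between 1271 and 1474 counts per 1000000 (CPM) in every sample. Summed markers of several other cell types differed between groups. The 7 B cell markers, with *Cd79a* at 0 in every sample, summed to 99.0 to 112 CPM with isotype, 49.1 to 58.0 with anti-PD1 and 75.1 to 114 with anti-Lag3. Most of this sum was *Ighm*, at 82.5 to 95.8, 43.3 to 53.7 and 70.0 to 108 CPM. All 5 tested B cell markers had a lower mean with either antibody than with isotype, *Ighm* with anti-Lag3 only slightly (88.9 against 89.1 CPM). *Ms4a1* was at 7.65 to 8.01, 1.64 to 2.40 and 1.27 to 3.34 CPM. The 8 macrophage and monocyte markers summed to 55.5 to 74.5, 19.2 to 35.2 and 35.0 to 35.7 CPM, and the 5 dendritic cell markers, with *Siglech* and *Zbtb46* at 0, to at most 1.88 CPM. The 5 markers of CD8 T and NK cells summed to 49.5 to 56.5, 31.1 to 35.5 and 33.1 to 34.2 CPM, and the 4 erythroid markers to 40.3 to 44.8, 14.9 to 36.8 and 20.7 to 46.4 CPM. The 4 regulatory T cell markers summed to 217 to 233 CPM with isotype, 205 in both anti-PD1 samples and 196 to 204 with anti-Lag3, of which *Ikzf2* made up 169.7 to 194 CPM. *Foxp3*, the defining factor of these cells, was at 2.36 and 16.1 CPM with isotype, 3.35 and 6.13 with anti-PD1, and 5.06 and 12.3 with anti-Lag3.

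CPM values are scaled by the trimmed mean of M values (TMM). The libraries were primed at the poly(A) tail and give about 1 tag per transcript, so CPM was compared between genes without dividing by length. Where 2 samples of a group are given, replicate 1 comes first.

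On GRCm38 the genes lie on 8 chromosomes, and neighbours occur within the set. *Il2ra* (chr2:11642807-11693193, plus strand) and *Il15ra* (chr2:11705290-11734317, plus strand) are separated by 12096 bases. *Il4ra* (chr7:125552120-125579474, plus strand) and *Il21r* (chr7:125603429-125633570, plus strand) are separated by 23954 bases. The others are *Il2rb* (chr15:78479256-78495271, minus), *Il2rg* (chrX:101264378-101268255, minus), *Il6ra* (chr3:89864059-89913196, minus), *Il6st* (chr13:112464070-112510086, plus), *Il27ra* (chr8:84030294-84042589, minus) and *Il10ra* (chr9:45253837-45269149, minus). All 10 are annotated as protein-coding genes. *Il15ra* has the most annotated transcripts, 18 with 13 different 3′ ends, and *Il6st* has 10 transcripts with 9 ends, whereas the other 8 genes have 2 to 5 transcripts. A gene on the same strand, *Gm37881*, overlaps *Il2ra* and had 279 reads over the 6 samples against 6821 for *Il2ra*. Genes overlapping *Il2rg*, *Il4ra*, *Il6ra*, *Il27ra* and *Il10ra* had 0 to 5 reads.

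Because STAT factors bind sites close to TTCNNNGAA (N is any base), this pattern was searched on both strands in RefSeq promoters (GRCm38.p6, 250 bases before to 50 after each start). The pattern is its own reverse complement, so that a single search covers both strands. RefSeq promoters were matched for 7 of the 10 receptor genes, and *Il2rb*, *Il27ra* and *Il10ra* had no entry in the table. 0 of these 7 genes held the pattern, against 5 of 35 other pathway genes with an entry and 2582 of all 27025 genes with an entry. By promoter the share was 8.30% of all 32851. A count of 0 among 7 genes is near this background. The last 60 bases before the start are shown for *Il2ra*, the most abundant of the set, and for *Il6ra* and *Il21r*, the genes with the smallest p between anti-PD1 and isotype, and none of these stretches holds the pattern.
Il2ra (chr2:11642732-11642791, plus strand): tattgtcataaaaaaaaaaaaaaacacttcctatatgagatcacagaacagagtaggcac
Il6ra (chr3:89913197-89913256, minus strand): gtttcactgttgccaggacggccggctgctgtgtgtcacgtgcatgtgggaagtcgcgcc
Il21r (chr7:125603369-125603428, plus strand): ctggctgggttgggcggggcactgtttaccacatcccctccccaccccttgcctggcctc

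For contrast, the windows around the pattern, in capitals, are shown for *Il12rb2*, which was called higher with anti-PD1 than with isotype or anti-Lag3, and for *Socs3* and *Il7r*, which were not called in any comparison. The match lies 123 to 115 bases before the start of *Il12rb2*, 154 to 146 before *Socs3* and 142 to 134 before *Il7r*. Promoters of *Cish* and *Il4* also held the pattern, but windows that reached past the start are not shown. The match is a description of letters, and whether a factor binds there was not measured.
Il12rb2 (chr6:67376293-67376321, minus strand): gttcccttttTTCTCAGAAccgcactaag
Socs3 (chr11:117969502-117969530, minus strand): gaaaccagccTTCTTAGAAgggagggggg
Il7r (chr15:9530000-9530028, minus strand): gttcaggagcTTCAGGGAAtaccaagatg

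The 10 receptor genes covered a wide range of levels. *Il2ra* was the most abundant at 480.2 ± 63.7 CPM (SD over 6 samples), above 98.1% of the genes tested, followed by *Il2rb* at 184 ± 21.4 and *Il2rg* at 158 ± 15.2 CPM. *Il21r*, *Il4ra*, *Il6st* and *Il6ra* formed a middle range at 93.0 ± 14.0, 86.9 ± 10.3, 70.4 ± 11.5 and 61.2 ± 18.0 CPM. *Il27ra* at 15.8 ± 3.68 and *Il15ra* at 10.9 ± 2.90 CPM lay near the middle of all genes tested, and *Il10ra* at 2.46 ± 2.40 CPM was above 17.5% of them. *Il2ra* exceeded *Il2rb*, *Il2rb* exceeded *Il2rg*, *Il2rg* exceeded *Il21r*, *Il6ra* exceeded *Il27ra*, and *Il15ra* exceeded *Il10ra* in 6 of 6 samples. *Il21r* exceeded *Il4ra* in 4 of 6 samples, and *Il4ra* exceeded *Il6st*, *Il6st* exceeded *Il6ra* and *Il27ra* exceeded *Il15ra* in 5 of 6 each, so the order within these neighbouring pairs was not the same in every sample. Summed over the 10 genes the level was 1038 and 1207 CPM with isotype, 1117 and 1209.9 with anti-PD1 and 1265 and 1139.6 with anti-Lag3, with overlap between all 3 groups. *Il2ra* alone made up 36.5 to 45.2% of that sum.

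**Figure D1:**
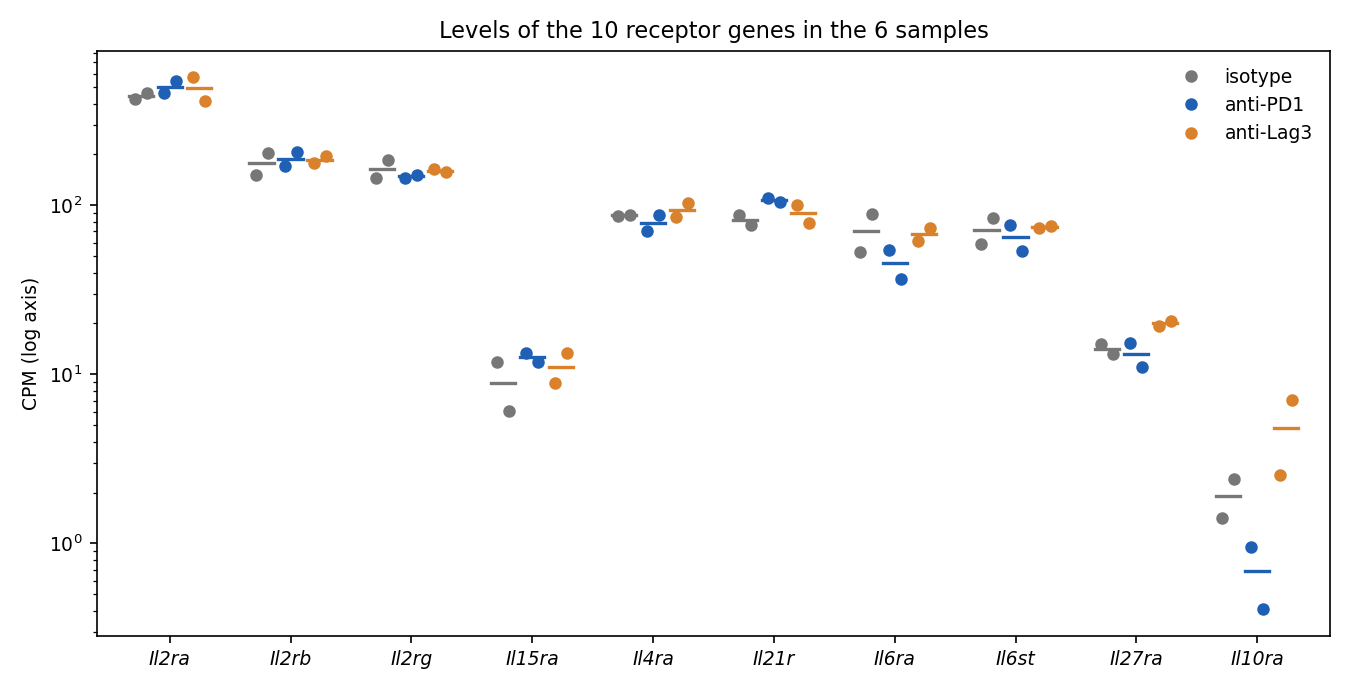
Level of each receptor gene in every sample, in TMM-scaled CPM on a log axis; points are single samples, 2 per group, and short lines are group means. The genes span from *Il10ra* at 0.409 to 7.06 CPM to *Il2ra* at 416 to 571 CPM, and the points of all 3 groups overlap for *Il2rb*, *Il4ra* and *Il6st*.

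The first question was whether blocking PD1 or Lag3 shifted receptor transcripts in cells that had responded. With anti-PD1 against isotype, 0 of 10 receptor genes passed the test, where 0.901% of all genes did, and 2 of 10, *Il6ra* and *Il21r*, had an unadjusted p under 0.05, where 8.12% of all genes did. With anti-Lag3 against isotype the counts were 0 of 10 on both measures, where 0.0421% and 5.96% of all genes passed. With anti-PD1 against anti-Lag3, 0 of 10 passed, where 0.303% of all genes did, and 2 of 10, *Il6ra* and *Il10ra*, had an unadjusted p under 0.05, where 6.53% did. The smallest adjusted p among the 10 was 0.212, 0.911 and 0.528 in the 3 comparisons (edgeR). The median log2 fold change of the 10 genes was -0.13 with anti-PD1 against isotype, 0.12 with anti-Lag3 against isotype and -0.16 with anti-PD1 against anti-Lag3, where the medians of all genes tested lay between -0.0025 and 0.0045. The first pair of comparisons shares the isotype samples, and each pair of the 3 comparisons shares a group. A p above the threshold does not show equality. The 95% interval of the difference stayed within a 2-fold change in either direction, an absolute log2 value under 1, for 7, 7 and 6 of the 10 genes, and for 48.8%, 50.7% and 50.2% of all genes tested.

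**Figure D2:**
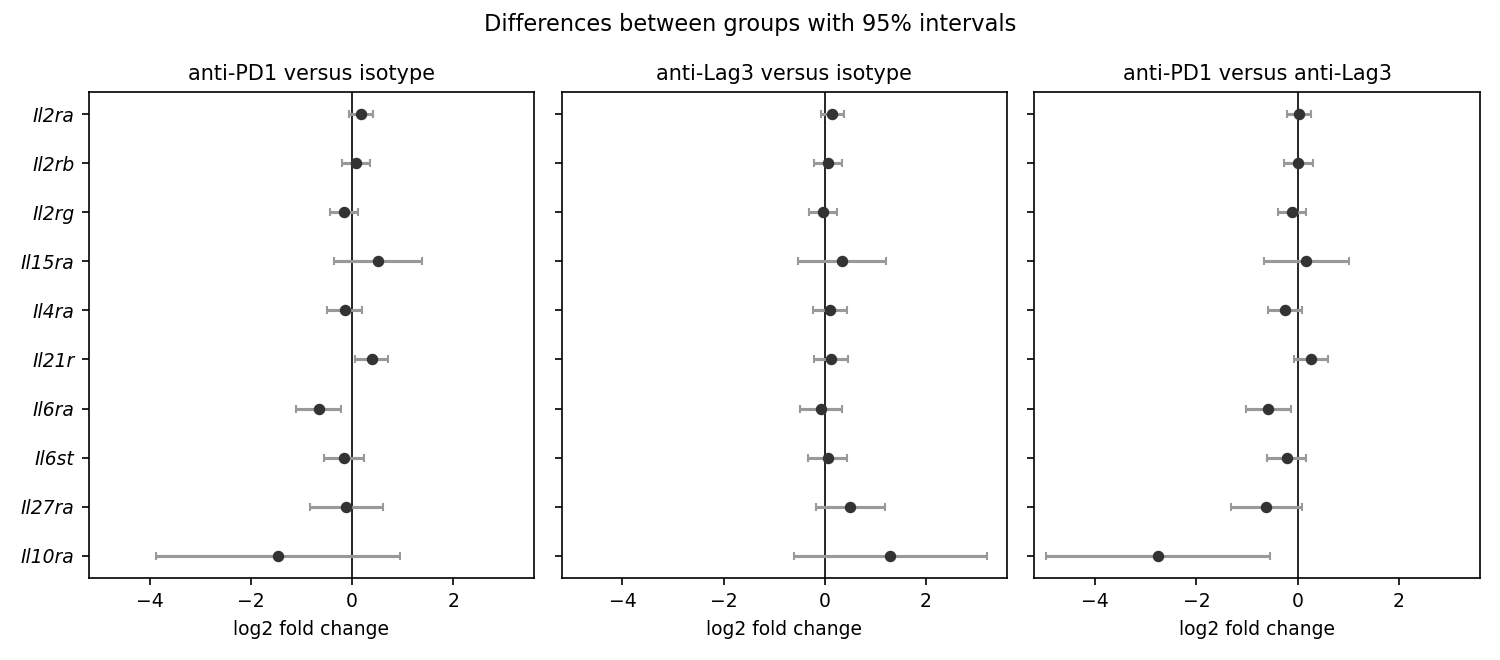
Log2 fold change of each receptor gene in the 3 comparisons, first group minus second, with its 95% interval from the edgeR fit; the vertical line marks no difference. Intervals are short for the abundant genes and widest for *Il10ra*, and they exclude 0 for *Il6ra* and *Il21r* with anti-PD1 against isotype and for *Il6ra* and *Il10ra* with anti-PD1 against anti-Lag3, each with an adjusted p above 0.05.

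Groups of 2 samples often fail to overlap: this held for 37.4% of all genes with anti-PD1 against isotype, 34.6% with anti-Lag3 against isotype and 35.9% with anti-PD1 against anti-Lag3. Among the receptor genes it held for 4, 2 and 5 of 10. With anti-PD1 *Il2ra*, *Il15ra* and *Il21r* lay above both isotype samples and *Il10ra* below them. With anti-Lag3 *Il27ra* and *Il10ra* lay above both isotype samples. Compared with anti-Lag3, the anti-PD1 samples were higher for *Il21r* and lower for *Il2rg*, *Il6ra*, *Il27ra* and *Il10ra*.

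Of the IL-2 and IL-15 receptor chains, *Il2ra*, *Il2rb* and *Il2rg* were the most abundant of the 10 genes and had the smallest SE, and *Il15ra* was among the least abundant. *Il2ra*, the alpha chain that activated T cells are known to induce, was at 427 and 460.1 CPM with isotype, 461 and 545 with anti-PD1, and 571 and 416 with anti-Lag3. The lower anti-PD1 sample was level with the higher isotype sample, and the anti-Lag3 samples held both the highest and the lowest value of the 6. Group means were 444 ± 23.1, 503 ± 59.4 and 494 ± 110.1 CPM (SD, n = 2 each). The difference between anti-PD1 and isotype was 0.18 ± 0.12 on the log2 scale (SE), with a 95% interval from -0.05 to 0.42, which is 0.966-fold to 1.33-fold, and an adjusted p of 0.755 (edgeR). Against isotype, anti-Lag3 gave 0.15 with an interval from -0.08 to 0.38, and anti-PD1 against anti-Lag3 gave 0.03 with an interval from -0.20 to 0.26.

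*Il2rb*, the signalling chain shared by IL-2 and IL-15, was at 151 and 204 CPM with isotype, 171 and 206 with anti-PD1, and 178 and 195 with anti-Lag3. All 3 groups overlapped. The log2 difference from isotype was 0.08 with anti-PD1 (95% interval from -0.20 to 0.36) and 0.07 with anti-Lag3 (from -0.21 to 0.35). *Il2rg*, the common gamma chain, was at 144 and 185 CPM with isotype, 145 and 152 with anti-PD1, and 164 and 157 with anti-Lag3. The isotype samples held both the lowest and the highest of the 6 values. The log2 difference from isotype was -0.15 with anti-PD1 (from -0.43 to 0.13) and -0.04 with anti-Lag3 (from -0.32 to 0.24).

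The chains were also set against each other within each sample. *Il2ra* over *Il2rb* ran from 2.13 to 3.22, and both extremes were anti-Lag3 samples. *Il2rb* over *Il2rg* was 1.05 and 1.10 with isotype, 1.18 and 1.35 with anti-PD1, and 1.08 and 1.24 with anti-Lag3, so that the anti-PD1 samples lay above the isotype samples without a test. *Il2ra* over *Il2rg* was 2.96 and 2.49 with isotype, 3.19 and 3.59 with anti-PD1, and 3.48 and 2.65 with anti-Lag3.

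*Il15ra*, which binds IL-15 and presents it to neighbouring cells, had 15 to 36 reads per sample. It was at 11.8 and 6.04 CPM with isotype, 13.4 and 11.9 with anti-PD1, and 8.86 and 13.4 with anti-Lag3. One isotype sample was the lowest of all, and the higher isotype sample was close to the lower anti-PD1 sample. The log2 difference with anti-PD1 against isotype was 0.52 ± 0.43, with an interval from -0.35 to 1.39 and an adjusted p of 0.864 (edgeR). No difference was detectable at this depth. *Il2ra* was 31.1 to 76.2 times as abundant as its neighbour on the chromosome.

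The chains that pair with the common gamma chain for IL-4 and IL-21 were close in level. *Il4ra*, the IL-4 binding chain, was at 86.7 and 88.2 CPM with isotype, 70.4 and 87.5 with anti-PD1, and 85.6 and 103 with anti-Lag3. The lowest value was an anti-PD1 sample and the highest an anti-Lag3 sample. The log2 difference from isotype was -0.14 with anti-PD1 (from -0.48 to 0.20) and 0.11 with anti-Lag3 (from -0.22 to 0.44), and that between anti-PD1 and anti-Lag3 was -0.25 (from -0.59 to 0.08).

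*Il21r*, the IL-21 binding chain, was at 87.7 and 76.5 CPM with isotype, 109.7 and 105 with anti-PD1, and 100.4 and 78.7 with anti-Lag3. Both anti-PD1 samples were above all 4 others, and the anti-Lag3 samples overlapped isotype. Group means were 82.1 ± 7.90, 107 ± 3.28 and 89.6 ± 15.3 CPM (SD, n = 2 each). The log2 difference with anti-PD1 against isotype was 0.39 ± 0.16, or 1.31-fold with an interval from 1.04-fold to 1.65-fold, with an adjusted p of 0.471 (edgeR). It stayed between 0.29 and 0.49 when any 1 replicate was left out, with no adjusted p under 0.05. The ratio of *Il21r* to *Il4ra* was 1.01 and 0.868 with isotype, 1.56 and 1.20 with anti-PD1, and 1.17 and 0.765 with anti-Lag3. The ligand of this receptor, *Il21*, is described with the pathway genes.

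*Il6ra*, the IL-6 binding chain, had the smallest p of the set. It was at 52.8 and 88.6 CPM with isotype, 54.1 and 36.8 with anti-PD1, and 61.1 and 73.5 with anti-Lag3. The isotype samples differed by more than the groups did: the lower isotype sample lay below the higher anti-PD1 sample, and both anti-PD1 samples lay below both anti-Lag3 samples. Group means were 70.7 ± 25.3, 45.5 ± 12.3 and 67.3 ± 8.77 CPM (SD, n = 2 each). With anti-PD1 against isotype the log2 difference was -0.65 ± 0.22 (95% interval from -1.10 to -0.21, or 0.468-fold to 0.863-fold), with an unadjusted p of 0.00469 and an adjusted p of 0.212 (edgeR). The value rested on single samples. Without isotype replicate 1 the difference was -0.97 with an adjusted p of 0.0146 (edgeR), the only setting in which any receptor gene passed, and without isotype replicate 2 it was -0.22 with an adjusted p of 0.927. Without anti-PD1 replicate 2 it was -0.40 with an adjusted p of 0.907. With anti-PD1 against anti-Lag3 the difference was -0.58 ± 0.22 (from -1.02 to -0.14) with an adjusted p of 0.528, and with anti-Lag3 against isotype it was -0.08 (from -0.50 to 0.34).

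*Il6st*, which encodes gp130, was at 59.4 and 83.7 CPM with isotype, 76.2 and 53.6 with anti-PD1, and 73.8 and 75.8 with anti-Lag3. The groups overlapped, and as for *Il6ra*, isotype replicate 2 was the highest of the 6 samples and anti-PD1 replicate 2 the lowest. The log2 difference from isotype was -0.16 with anti-PD1 (from -0.55 to 0.24) and 0.06 with anti-Lag3 (from -0.33 to 0.44). The ratio of *Il6st* to *Il6ra* was 1.13 and 0.945 with isotype, 1.41 and 1.46 with anti-PD1, and 1.21 and 1.03 with anti-Lag3. Both anti-PD1 samples had a higher ratio than the other 4, and no test was made of it. Summed macrophage, B cell, CD8 T and NK cell markers were lower with anti-PD1 than with isotype, as given above. With anti-Lag3 the macrophage sum (35.0 to 35.7 CPM) was also below isotype. So was the CD8 T and NK cell sum (33.1 to 34.2 CPM), whereas the B cell sum overlapped isotype. *Il6ra* with anti-Lag3 differed from isotype by -0.08 on the log2 scale. Within isotype, *Il6ra* was higher in replicate 2, as were the B cell sum (99.0 and 112 CPM) and *Foxp3*. The macrophage sum (74.5 and 55.5 CPM) and the CD8 T and NK cell sum (56.5 and 49.5 CPM) were higher in replicate 1. Of the other regulatory T cell markers, *Ikzf2* and *Lrrc32* were higher in replicate 2 and *Nrp1* in replicate 1. The part of these cells in the *Il6ra* difference was not tested. In bulk samples fewer cells of a type and less RNA per cell cannot be told apart.

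*Il27ra*, the IL-27 binding chain, had 27 to 56 reads per sample. It was at 15.1 and 13.3 CPM with isotype, 15.3 and 11.0 with anti-PD1, and 19.4 and 20.8 with anti-Lag3. Both anti-Lag3 samples were above all 4 others. The log2 difference with anti-Lag3 against isotype was 0.51 ± 0.34 (from -0.18 to 1.19) with an adjusted p of 0.911 (edgeR), and with anti-PD1 against anti-Lag3 it was -0.62 ± 0.34 (from -1.31 to 0.08) with an adjusted p of 0.798. With anti-PD1 against isotype it was -0.11 (from -0.84 to 0.62).

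*Il10ra*, the IL-10 binding chain, was close to the limit of detection. It had 3 and 6 reads with isotype, 2 and 1 with anti-PD1, and 6 and 19 with anti-Lag3, where 3 reads correspond to 1.11 to 1.44 CPM. In CPM this was 1.41 and 2.42, 0.958 and 0.409, and 2.53 and 7.06. Most of the anti-Lag3 reads came from 1 sample. From the summed reads of 9, 3 and 25, the ratio of anti-PD1 to isotype was 0.339 with a 95% counting interval from 0.0590 to 1.36, that of anti-Lag3 to isotype 2.53 (from 1.14 to 6.15) and that of anti-PD1 to anti-Lag3 0.134 (from 0.0259 to 0.439). These intervals cover counting error only. With the spread between replicates included, the adjusted p was 0.858, 0.916 and 0.585 (edgeR). *Il10rb*, the partner chain, was at 10.8 and 8.86 CPM with isotype, 6.23 and 12.7 with anti-PD1, and 13.1 and 11.1 with anti-Lag3, and its adjusted p was above 0.9 in each comparison (edgeR).

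The genes with sample-to-sample patterns most like *Il2ra* were sought among 3057 genes at a mean of at least 50 CPM, by the root mean square difference of centred log2 CPM over the 6 samples. They were *Gm16286* at 0.0421, *Plrg1* at 0.0595 and *Trim25* at 0.0596, where *Il2ra* itself had an SD of 0.170 on that scale. Among the other receptor genes *Il21r* was nearest at 0.164 and *Il10ra* farthest at 0.926. A gene without any variation would lie at 0.170, so *Il21r* was hardly nearer than that. The distance of *Il10ra* includes counting error at 1 to 19 reads per sample. How near the best of 3057 genes would lie by chance over 6 samples was not tested.

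The wider pathway was described with a list of 49 genes that are not members of the set, of which 37 were tested. The list was drawn up with earlier results of these data known, so its share of calls is not a test of the pathway. It also takes in *Il12rb2*, *Il23r* and *Stat4*, which belong to IL-12 and IL-23 signalling. With anti-PD1 against isotype 7 of 37 rose and 1 fell, where 0.631% of all genes rose and 0.269% fell. The median log2 fold change of the 37 was 0.21. With anti-Lag3 against isotype 1 of 37 rose and 0 fell, where 0.0253% and 0.0168% of all genes did. With anti-PD1 against anti-Lag3 4 of 37 were higher and 1 lower, where 0.244% and 0.0589% of all genes were. The 4 were *Il12rb2*, *Il23r* (adjusted p 6.76e-04, edgeR), *Jak2* (0.0127) and *Stat3* (0.0420), and the 1 was *Ptpn6* (0.0248). Without anti-PD1 replicate 1 only *Il12rb2* was still called in that comparison, and without anti-PD1 replicate 2 there were 2 calls.

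**Figure D3:**
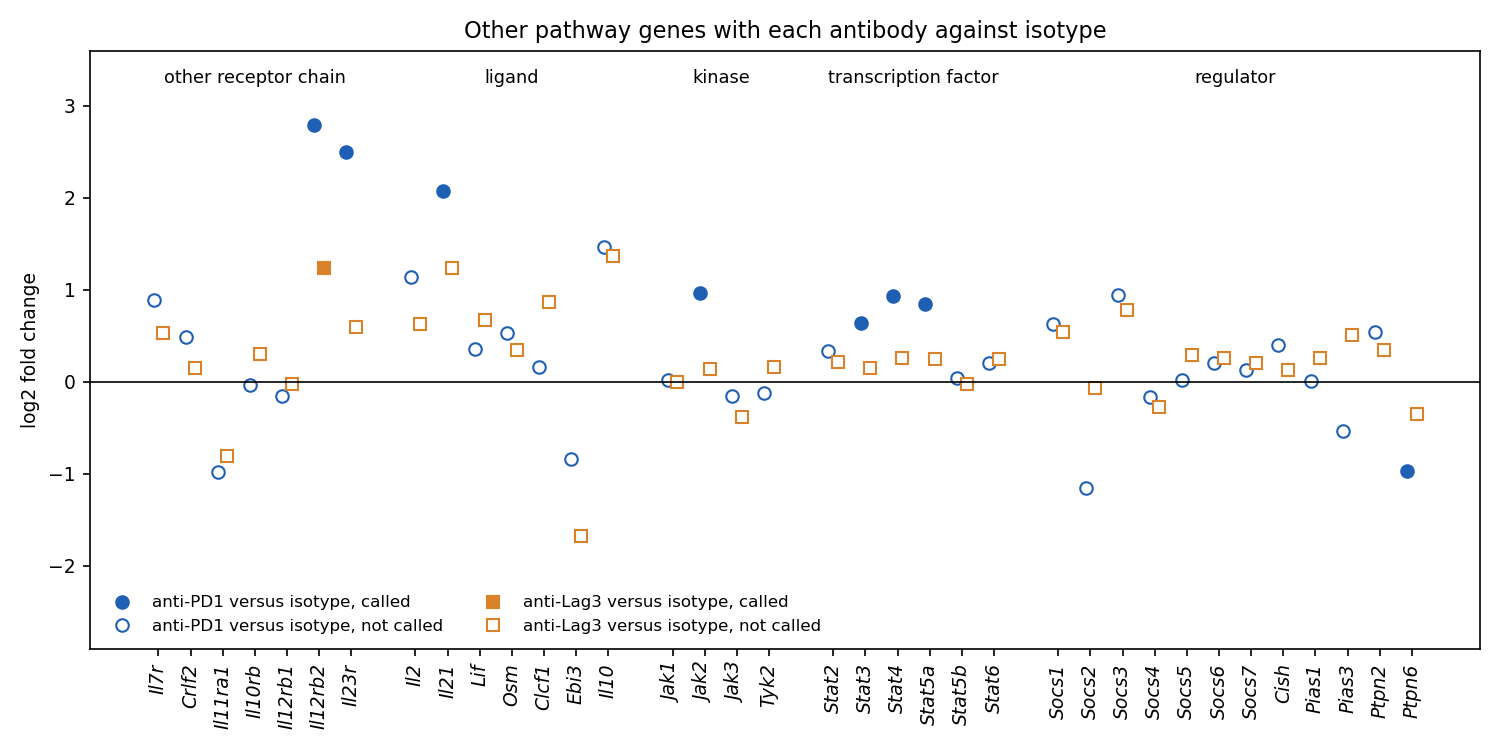
Log2 fold change from isotype of the tested pathway genes except 1, ordered by role, with anti-PD1 (circles) and anti-Lag3 (squares); filled symbols passed an adjusted p under 0.05. The filled circles are *Il12rb2*, *Il23r*, *Il21*, *Jak2*, *Stat3*, *Stat4* and *Stat5a* above 0 and *Ptpn6* below it, and the filled square is *Il12rb2*.

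Among the 7 tested receptor chains outside the set, 2 rose with anti-PD1. *Il12rb2*, the signalling chain of the IL-12 receptor and related to gp130, was at 17.4 and 12.9 CPM with isotype, 100.1 and 109.2 with anti-PD1, and 43.0 and 28.6 with anti-Lag3. The groups were fully separated, with anti-Lag3 between the others. It was 6.94-fold higher with anti-PD1 than with isotype (log2 2.80 ± 0.24, adjusted p 1.55e-10, edgeR) and 2.94-fold higher than with anti-Lag3 (adjusted p 2.49e-05). With anti-Lag3 against isotype it was 2.36-fold higher with an adjusted p of 0.0497, a call that was lost in 8 of the other settings and without isotype replicate 2, either anti-PD1 replicate or anti-Lag3 replicate 1. *Serbp1* overlaps it on the other strand with 54601 reads, and whether reads of the pair were separated depends on a strand setting not given in the sources used here.

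*Il23r*, the IL-23 binding chain, was at 16.5 and 6.44 CPM with isotype, 70.0 and 57.2 with anti-PD1, and 24.0 and 10.4 with anti-Lag3. The anti-PD1 samples were above the other 4, which overlapped. It was 5.64-fold higher with anti-PD1 than with isotype (log2 2.50 ± 0.33, adjusted p 3.1e-06, edgeR). With DESeq2 the adjusted p was 0.0559. *Il7r*, the IL-7 receptor chain that also pairs with the gamma chain, was at 16.5 and 9.26 CPM with isotype, 18.2 and 28.6 with anti-PD1, and 15.6 and 21.2 with anti-Lag3, with an adjusted p of 0.419 for anti-PD1 against isotype. The gp130 partners *Lifr*, *Osmr* and *Cntfr* had 0 reads in all 6 samples, which allows a level of up to 1.11 to 1.44 CPM in a sample.

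Of 14 ligands 7 were tested and 1 rose. *Il21* was at 16.0 and 8.45 CPM with isotype, 60.4 and 41.7 with anti-PD1, and 30.4 and 26.7 with anti-Lag3. The 3 groups were fully separated. It was 4.20-fold higher with anti-PD1 than with isotype (log2 2.07 ± 0.30, adjusted p 1.54e-05, edgeR), and 2.36-fold higher with anti-Lag3 than with isotype with an adjusted p of 0.281. *Gm12534*, on the other strand, overlaps *Il21* and had 325 reads. The receptor chain for IL-21, *Il21r*, was 1.31-fold higher with anti-PD1 than with isotype, with an adjusted p of 0.471 (edgeR).

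The other 6 ligands did not pass in any comparison. *Il2*, the ligand of the *Il2ra* complex, was at 9.90 and 6.04 CPM with isotype, 23.5 and 11.9 with anti-PD1, and 10.5 and 13.7 with anti-Lag3, 2.21-fold higher with anti-PD1 than with isotype with an adjusted p of 0.312 (edgeR). *Il10* was at 3.30 and 2.01, 9.10 and 5.72, and 5.48 and 8.17 CPM, with adjusted p of 0.492 for anti-PD1 and 0.803 for anti-Lag3 against isotype. *Lif*, a gp130 ligand, was at 54.2 and 37.4, 70.4 and 47.4, and 72.5 and 72.4 CPM. *Osm*, *Clcf1* and *Ebi3* stayed between 1.49 and 18.0 CPM in all samples. *Il4*, *Il6*, *Il7* and *Il9* had 0 reads in all 6 samples.

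The Janus kinases differed among themselves. *Jak2*, which the IL-12 and gp130 receptors use, was at 55.1 and 56.0 CPM with isotype, 112 and 106 with anti-PD1, and 68.3 and 54.6 with anti-Lag3. Both anti-PD1 samples were well above the other 4. It was 1.96-fold higher with anti-PD1 than with isotype (log2 0.97 ± 0.18, adjusted p 7.05e-04, edgeR). *Jak1* was at 360.0 to 428 CPM in the 6 samples and *Jak3*, the kinase bound to the gamma chain, at 20.7 to 35.0 CPM, with log2 differences of 0.02 (from -0.20 to 0.23) and -0.16 (from -0.73 to 0.42) between anti-PD1 and isotype.

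Of 7 STAT genes 3 rose with anti-PD1. *Stat3*, the main factor downstream of IL-6 and IL-21, was at 323 and 260.0 CPM with isotype, 473 and 438 with anti-PD1, and 296 and 352 with anti-Lag3. It was 1.56-fold higher with anti-PD1 than with isotype (log2 0.65 ± 0.12, adjusted p 6.26e-04, edgeR). *Stat5a*, downstream of IL-2, was at 73.5 and 60.8, 126 and 117, and 82.7 and 76.1 CPM, 1.81-fold higher with anti-PD1 (adjusted p 0.00164). *Stat4*, downstream of IL-12, was at 73.0 and 47.1, 121 and 107, and 62.0 and 80.6 CPM, 1.91-fold higher (adjusted p 0.00243). In each of these genes both anti-PD1 samples were above the other 4 samples. Without isotype replicate 2 the adjusted p was 0.133, 0.136 and 0.295 for *Stat3*, *Stat5a* and *Stat4*, and without anti-PD1 replicate 1 it was 0.0557, 0.0691 and 0.113. *Stat3* and *Stat5a* overlap each other on opposite strands, with the same open question of strand.

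Of 12 regulators 1 fell. *Ptpn6*, which encodes the phosphatase SHP-1, was at 228 and 220.2 CPM with isotype, 123 and 106 with anti-PD1, and 159 and 192 with anti-Lag3. The 3 groups were fully separated, with anti-PD1 lowest. It was at 0.510 of the isotype level with anti-PD1 (log2 -0.97 ± 0.14, adjusted p 1.41e-05, edgeR). Blood cells other than T cells also express *Ptpn6*, and with anti-PD1 the summed B cell markers, mostly *Ighm*, and macrophage markers moved in the same direction. With anti-Lag3 the macrophage sum (35.0 to 35.7 CPM) was also below isotype (55.5 to 74.5). *Ptpn6* was then at 0.784 of the isotype level, with an adjusted p of 0.690 (edgeR). The part of these cells in the *Ptpn6* result was not tested. *Socs1*, *Socs3* and *Cish*, which cytokine signalling is known to induce, did not pass in any comparison. *Socs1* was at 37.7 and 39.8 CPM with isotype, 61.8 and 58.5 with anti-PD1, and 59.9 and 53.5 with anti-Lag3. *Socs3* was at 23.6 and 19.7, 33.1 and 49.5, and 44.7 and 29.7 CPM. For both genes all samples of either antibody lay above both isotype samples. Over all genes tested, samples failed to overlap isotype in 37.4% with anti-PD1 and 34.6% with anti-Lag3. The share with both was not computed. With anti-PD1 against isotype the adjusted p was 0.181 for *Socs1* and 0.0915 for *Socs3* (edgeR). *Cish* was at 39.6 and 55.9, 57.0 and 69.9, and 61.1 and 44.2 CPM, so that its anti-Lag3 samples overlapped isotype.

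**Figure D4:**
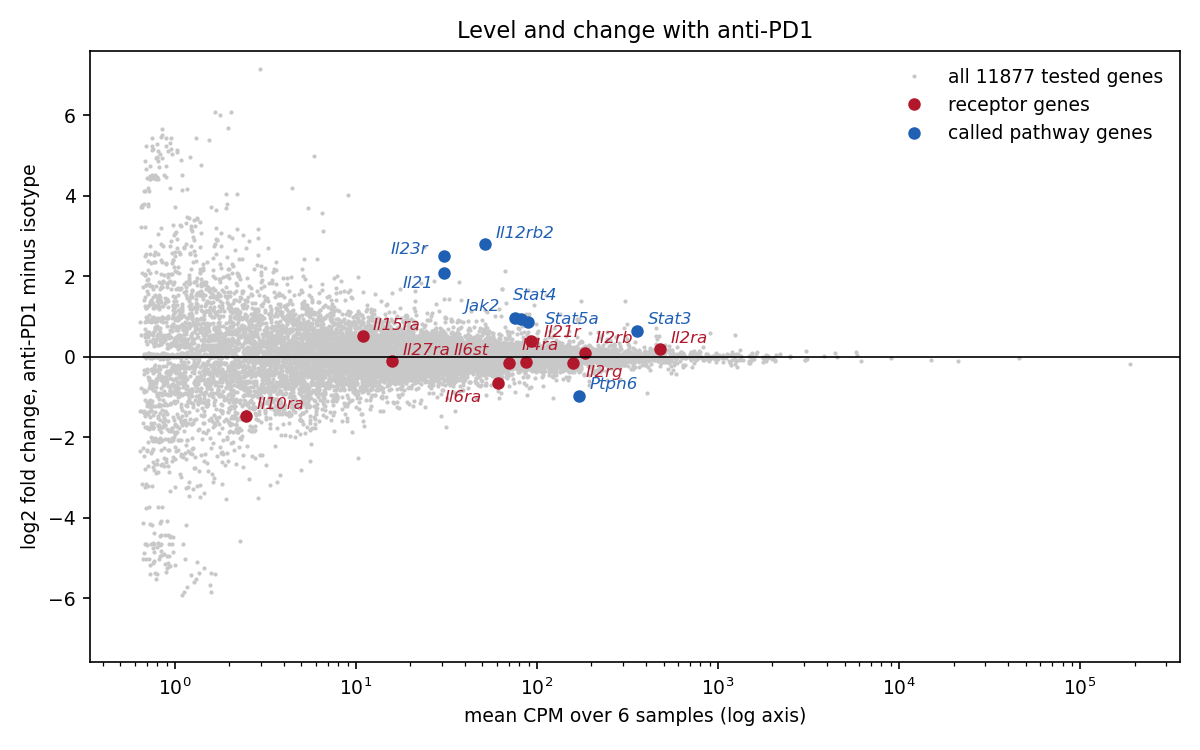
Log2 fold change between anti-PD1 and isotype against mean CPM over the 6 samples (log axis) for all 11877 genes tested (grey), the 10 receptor genes (red) and the 8 called pathway genes (blue). The receptor genes lie within or at the edge of the grey cloud at their level, and *Il12rb2*, *Il23r* and *Il21* lie well above it.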

How the data were processed

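The authors prepared QuantSeq 3′ libraries, trimmed with Bbduk, aligned to GRCm38 (mm10) with STAR 2.5.2a, and used HTSeq-count for read counts of Ensembl genes. The annotation release and strand setting were not given in the sources used here. The deposited counts are raw whole numbers without normalization, and the deposited rlog values, made with DESeq2, are on a log2 scale and were used in an alternative only.

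Genes with at least 10 reads over the 6 samples were fitted in edgeR 4.0.16 (R 4.3.3) with TMM scaling, all samples together and group as the only term (glmQLFit and glmQLFTest, legacy method). Benjamini-Hochberg adjustment ran over 11877 genes, with a threshold of 0.05. SE and 95% intervals were derived from the quasi-likelihood F statistic. Symbols and positions came from GENCODE vM21, which matched 47224 of 47643 identifiers, and promoters from RefSeq. Samples were grouped by their titles and treatment labels. The labels call the 2 samples of a group biological duplicates, and replicates differed by more than counting noise (chi-square per degree of freedom 2.65 to 3.29).

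The receptor genes, the pathway and marker lists and the tests were chosen with earlier results of these data known. Genes named are the 10 receptor genes, every pathway gene that passed in any comparison, and the tested ligands; 1 gene of the pathway list is counted but not reported here. *Il7r*, *Il10rb*, *Jak1*, *Jak3*, *Socs1*, *Socs3*, *Cish*, *Foxp3*, *Ikzf2*, other single cell type markers and the genes without reads were named after their values were seen. The alternatives were DESeq2 1.42.0, limma-voom and limma on rlog (limma 3.58.1), a newer edgeR method, the 4 samples of a comparison alone, other scalings, filters and threshold, the replicate number as a block, and each replicate left out. All columns of sample values were used.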

Additional observations from a re-analysis of the deposited data

How the results depend on the processing

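Across 294 fold changes of receptor genes refitted with another tool, scaling, filter, set of samples or the replicate block, 0 changed direction or side of the threshold. DESeq2 gave no adjusted p for 5 pairs of gene and comparison, of which 1 (*Il23r*, anti-PD1 against anti-Lag3) was called by edgeR, and filterByExpr removed *Il10ra*. With 1 replicate left out, where the lone sample is assumed to vary like the others, 0 to 1 receptor genes were called with anti-PD1 against isotype, the 1 being *Il6ra* without isotype replicate 1. For the pathway list these counts ran from 5 to 10 with anti-PD1 against isotype (8 with all samples; 5 without isotype replicate 2 or anti-PD1 replicate 1), from 0 to 2 with anti-Lag3 against isotype (1 with all samples; 2 without isotype replicate 1) and from 1 to 5 between anti-PD1 and anti-Lag3 (5 with all samples; 1 without anti-PD1 replicate 1, 2 without anti-PD1 replicate 2). The single anti-Lag3 call, *Il12rb2*, was 0 under DESeq2, limma-voom, the newer edgeR method, limma on rlog, the 4 samples alone, RLE scaling, upper-quartile scaling and filterByExpr, and 2 genes were called with no filter beyond 1 read. Between anti-PD1 and anti-Lag3, DESeq2 and the newer edgeR method each called 3. The cause of these changes was not tested.

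Directions that turned when 1 replicate was left out all belonged to differences that did not pass. The log2 ranges with anti-PD1 against isotype were -0.11 to 0.32 for *Il2rb*, -0.31 to 0.042 for *Il2rg*, -0.42 to 0.12 for *Il6st*, -0.31 to 0.0011 for *Il4ra* and -0.36 to 0.11 for *Il27ra*. With anti-Lag3 against isotype they were -0.10 to 0.37 for *Il2ra*, -0.13 to 0.30 for *Il2rb*, -0.20 to 0.15 for *Il2rg*, -0.076 to 0.88 for *Il15ra*, -0.024 to 0.23 for *Il4ra*, -0.062 to 0.30 for *Il21r*, -0.39 to 0.35 for *Il6ra*, -0.16 to 0.33 for *Il6st*, -0.11 to 1.40 for *Il23r*, -0.030 to 0.31 for *Jak2* and -0.031 to 0.60 for *Stat4*. Between anti-PD1 and anti-Lag3 they were -0.19 to 0.28 for *Il2ra*, -0.13 to 0.14 for *Il2rb*, -0.48 to 0.023 for *Il6st* and -0.080 to 0.50 for *Il15ra*.

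Samples sharing a replicate number showed little shared deviation (correlations over genes of 0.0206, 0.0182 and -0.0104), and the main fit did not take the numbers as pairs. These correlations include genes with few reads, so they cannot exclude a shared batch. The paper states that the samples of its excluded replicate were sorted and processed as a batch. Whether the same holds for the replicates used here was not stated. With the replicate block 0 receptor genes were called in each comparison, and 9, 1 and 5 pathway genes. Over all genes tested the block gave 144, 6 and 46 calls, against 107, 5 and 36 without it.

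Depth limits *Il10ra*, *Il15ra* and *Il27ra* most, and 3 reads in a sample correspond to 1.11 to 1.44 CPM. With 2 samples a group, a p above the threshold does not show that levels were equal.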
